A study of Homo sapiens with 6 samples.

Results

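The miRNAs described here are 38 mature miRNAs that are best known as markers of cells other than bronchial epithelium. They comprise 6 miRNAs of skeletal and heart muscle, 7 of blood cells, 2 of endothelium, 1 of liver, 6 of neural tissue, 8 of pluripotent stem cells, 4 of stromal cells such as fibroblasts and smooth muscle, and 4 of placenta. They were picked by name, and 34 of them are among the 1727 known mature miRNA names counted in the series. A name without a row in a library was taken as a count of 0. All libraries came from BEAS-2B, an immortalised cell line derived from normal human bronchial epithelium, so the series holds 1 cell line and no tissue of the marked lineages. The PRMT1 group (n = 3) received a pcDNA plasmid carrying PRMT1, a protein arginine methyltransferase, and the control group (n = 3) received pcDNA3.1, both for 48 h, and the series asked how miRNAs of these cells respond to PRMT1. The labels do not say whether replicates were grown separately, so the tests measure spread between libraries that may be technical. The tables hold small RNA names and 1 pooled row of exon reads, so the level of PRMT1 itself could not be checked.

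A miRNA is cut from a hairpin in a longer transcript, and 1 of its arms is usually retained in Argonaute, where the seed, bases 2 to 8, pairs with target messenger RNAs. Many miRNAs are transcribed in most cells, but some are driven by promoters or lie in introns of genes that are active in a single lineage, as with the muscle miRNAs inside myosin genes. Such miRNAs are commonly read as markers of a cell type, and several share 1 primary transcript with other markers of the same lineage.

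The RefSeq table of GRCh38.p14 held mature sequences for 33 of the 38 miRNAs, with 26 different seeds. The first set is shown because it carries most of the reads of these markers in BEAS-2B; each is written 5′ to 3′ with the seed in capitals.
hsa-miR-138-5p: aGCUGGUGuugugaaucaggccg
hsa-miR-126-3p: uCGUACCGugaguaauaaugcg
hsa-miR-126-5p: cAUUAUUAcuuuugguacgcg
hsa-miR-128-3p: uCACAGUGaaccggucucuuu
hsa-miR-9-5p: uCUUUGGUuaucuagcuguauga
hsa-miR-9-3p: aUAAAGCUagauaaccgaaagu
hsa-miR-219a-5p: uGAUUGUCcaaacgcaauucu
hsa-miR-499a-5p: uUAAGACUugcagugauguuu
hsa-miR-143-3p: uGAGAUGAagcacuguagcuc
hsa-miR-145-5p: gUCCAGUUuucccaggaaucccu

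These muscle miRNAs are shown because they form pairs of similar sequence. How reads were divided between such names is not given in the sources used here. MiR-133a-3p and miR-133b matched at 21 of 22 aligned bases, and miR-1-3p and miR-206 at 18 of 22, with the same seed in each pair.
hsa-miR-133a-3p: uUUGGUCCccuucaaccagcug
hsa-miR-133b: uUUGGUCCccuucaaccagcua
hsa-miR-1-3p: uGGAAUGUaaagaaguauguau
hsa-miR-206: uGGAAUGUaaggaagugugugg

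The pluripotency set is shown because 6 of its 8 members have the same seed in capitals, from hairpins on chromosomes 4 and 19.
hsa-miR-302a-3p: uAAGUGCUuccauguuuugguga
hsa-miR-302b-3p: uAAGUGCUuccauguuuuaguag
hsa-miR-302c-3p: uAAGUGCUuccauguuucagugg
hsa-miR-302d-3p: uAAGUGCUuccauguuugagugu
hsa-miR-372-3p: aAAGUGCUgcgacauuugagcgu
hsa-miR-373-3p: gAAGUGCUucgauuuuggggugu

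Libraries held 23.95 M to 25.79 M counts, of which known mature miRNAs took 11.91 M to 14.43 M in PRMT1 and 11.54 M to 16.42 M in control libraries. Levels are given as CPM, the counts scaled to each library's known miRNA total with edgeR's TMM factors. CPM has no length term, and the mature sequences run from 20 to 24 bases. A count of 3, the limit that a count of 0 allows, was 0.183 to 0.26 CPM before TMM scaling and covers counting error only. MiR-21-5p took 56.94% to 59.06% of known miRNA counts in PRMT1 libraries and 49.38% to 66.04% in control libraries, with the highest share in control library 2, which stood apart. All 7 epithelial markers checked were counted in every library. MiR-200a-3p, miR-429 and miR-200b-3p averaged 4009, 2371 and 2230 CPM over the 6 libraries. The others were far lower, with miR-200c-3p at 48.29 CPM, miR-141-3p at 20.42 CPM, miR-205-5p at 6.37 CPM and miR-203a-3p at 3.26 CPM. None of the 7 passed between PRMT1 and control by edgeR, with 4 above and 3 below 0. Of the 7, 1 (miR-205-5p) had an unadjusted p under 0.05, beside 5.39% of all 668 names tested. Groups did not overlap for miR-205-5p, higher in PRMT1 libraries, and miR-429, lower in PRMT1 libraries, beside 10.2% of the 668 names.

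Most of these markers of other tissues were found, and 21 of the 38 averaged below 1 CPM. In bulk libraries such as these, fewer cells with a miRNA and less of it in each cell cannot be told apart. At least 1 read was counted for 34 of the 38 miRNAs, 25 had more than 3 counts in at least 1 library, and 21 had more than 3 counts in every library. The number with a read was 29, 27 and 29 in PRMT1 libraries 1 to 3, and 25, 28 and 27 in control libraries 1 to 3. Without control library 2 these numbers were 33, 25 and 21. At least 10 CPM was averaged by 11 of the 38, where 332 of the 1727 known names reached that level, and 4 averaged at least 100 CPM. Together the 38 took 0.538% ± 0.038 of known miRNA counts in PRMT1 libraries and 0.507% ± 0.059 in control libraries (SD, n = 3 each). MiR-138-5p and miR-126-3p alone held 79.4% to 84.2% of those counts. The summed CPM of the 38 was 0.610 to 0.657 of the summed epithelial markers in PRMT1 libraries and 0.532 to 0.634 in control libraries.

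**Figure D1:**
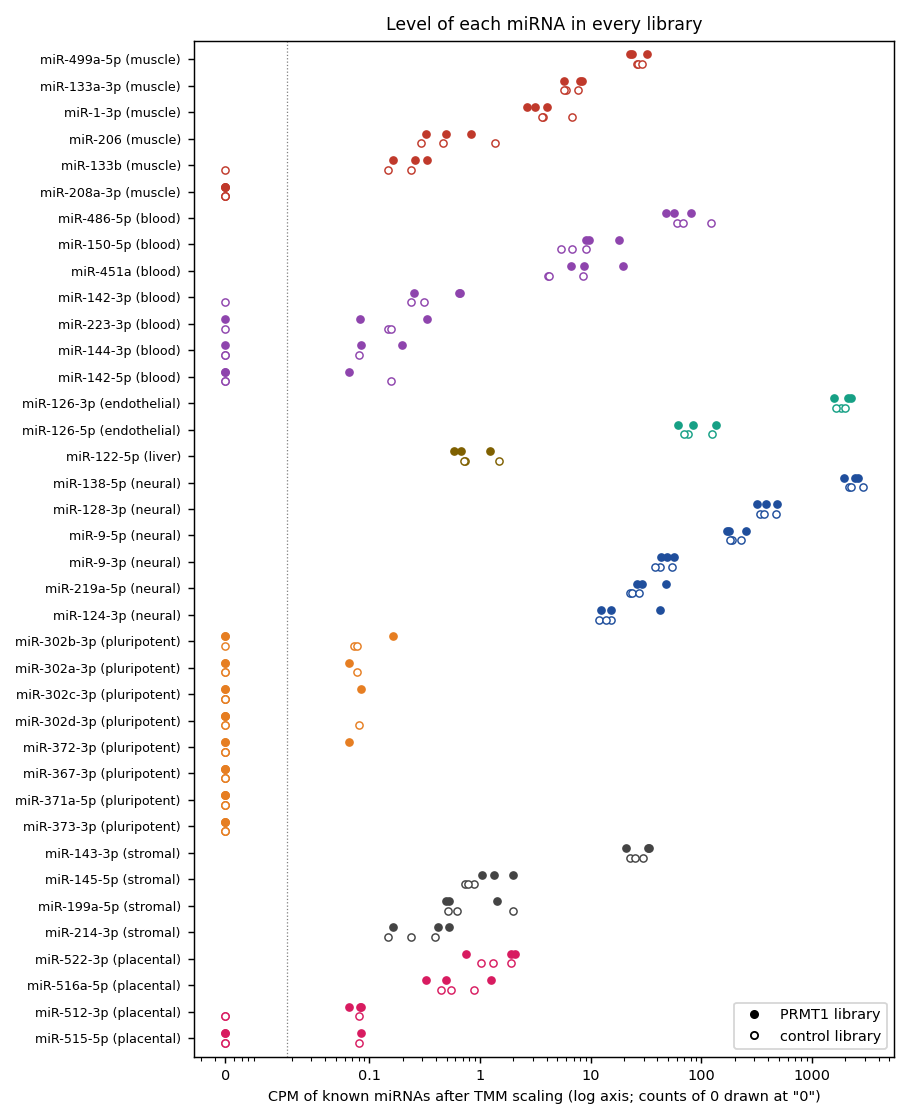
Each miRNA has its CPM in every library on a log axis, filled points for PRMT1 and open points for control libraries, with counts of 0 drawn at the mark 0. The neural and endothelial markers reach up to 2857 CPM, whereas the pluripotency markers lie at 0 or at the level of 1 or 2 reads.

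The neural markers had the highest summed CPM of the lineages, and 6 of 6 were above 3 counts in every library. Their sum was 3036 ± 342.8 CPM in PRMT1 libraries and 3093 ± 407.7 CPM in control libraries (SD, n = 3 each). Most of it came from miR-138-5p alone, which averaged 2333 CPM in PRMT1 and 2418 CPM in control libraries. MiR-138-5p, which restrains dendritic spine growth in neurons of the rat, stood at 1930, 2465 and 2604 CPM in PRMT1 libraries 1 to 3, and 2151, 2857 and 2247 CPM in control libraries 1 to 3. It ranked 39 of 1727 names. Of the epithelial markers, miR-200a-3p was higher in every library (3184 to 4434 CPM), miR-429 and miR-200b-3p overlapped with it (1684 to 2718 and 1776 to 2982 CPM), and the other 4 were lower. The PRMT1 and control ranges overlapped, and its log2 fold change was -0.05 (SE 0.20, edgeR adjusted p = 0.983). Its sequence is encoded by hairpins at chr3:44114212-44114310 and chr16:56858518-56858601 (GRCh38.p14, plus strand, both intergenic in GENCODE 29). The opposite arms tell the hairpins apart. MiR-138-1-3p, from chromosome 3, stood at 3.77, 10.4 and 5.10 CPM in PRMT1 libraries and 15.6, 5.28 and 11.8 CPM in control libraries. MiR-138-2-3p, from chromosome 16, stood at 0.390, 0.576 and 1.09 CPM in PRMT1 libraries and 0.734, 0.320 and 0.233 CPM in control libraries. In every library the arm from chromosome 3 was the higher.

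MiR-128-3p, a miRNA of mature neurons, ranked next among the neural markers. It stood at 485.9, 318.8 and 380.9 CPM in PRMT1 libraries and 335.3, 370.6 and 470.5 CPM in control libraries, with overlapping groups and a log2 fold change of 0.01 (SE 0.25). Its hairpins lie in introns of R3HDM1 (chr2:135665397-135665478) and ARPP21 (chr3:35744476-35744559), a gene of brain neurons (GRCh38.p14, both on the plus strand). The arm particular to the R3HDM1 hairpin, miR-128-1-5p, had 14 to 41 counts in PRMT1 libraries and 29 to 43 in control libraries. The arm particular to the ARPP21 hairpin, miR-128-2-5p, had 1 count, in control library 1.

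MiR-9, which governs the timing of neural progenitor differentiation, was present by both arms. MiR-9-5p stood at 170.8, 179.0 and 251.2 CPM in PRMT1 libraries and 189.3, 228.5 and 182.4 CPM in control libraries, means of 200.3 ± 44.23 and 200.1 ± 24.83 CPM (SD, n = 3 each). MiR-9-3p stood at 56.48, 48.85 and 43.41 CPM in PRMT1 libraries and 42.05, 54.33 and 38.27 CPM in control libraries. The 5p arm had 3.02 to 5.79 times the counts of the 3p arm in PRMT1 libraries and 4.20 to 4.77 times in control libraries. The identical sequence is made from 3 loci, chr1:156420341-156420429 in an intron of C1orf61, chr5:88666853-88666939 in an exon of LINC00461, and chr15:89368017-89368106 in an intron of MIR9-3HG (GRCh38.p14; the first and second on the minus strand, the third on the plus strand). Their reads cannot be divided by these names. Log2 fold changes were 0.00 (SE 0.25) for miR-9-5p and 0.14 (SE 0.24) for miR-9-3p.

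MiR-219a-5p and miR-124-3p were the lowest neural markers. MiR-219a-5p, which promotes myelination by oligodendrocytes in the mouse, stood at 29.28, 26.07 and 47.84 CPM in PRMT1 libraries and 22.68, 23.53 and 27.31 CPM in control libraries (log2 0.49, SE 0.28, edgeR adjusted p = 0.745). Of its opposite arms, miR-219a-2-3p had 96 to 249 counts over the 6 libraries and miR-219a-1-3p 8 to 19. MiR-124-3p, the leading miRNA of neurons, stood at 12.49, 15.30 and 41.99 CPM in PRMT1 libraries and 15.12, 11.92 and 13.77 CPM in control libraries. PRMT1 library 3 was high for both, and the other PRMT1 libraries lay within or near the control range. Without PRMT1 library 3 the log2 fold change of miR-124-3p was 0.02 rather than 0.77, and that of miR-219a-5p was 0.17.

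**Figure D2:**
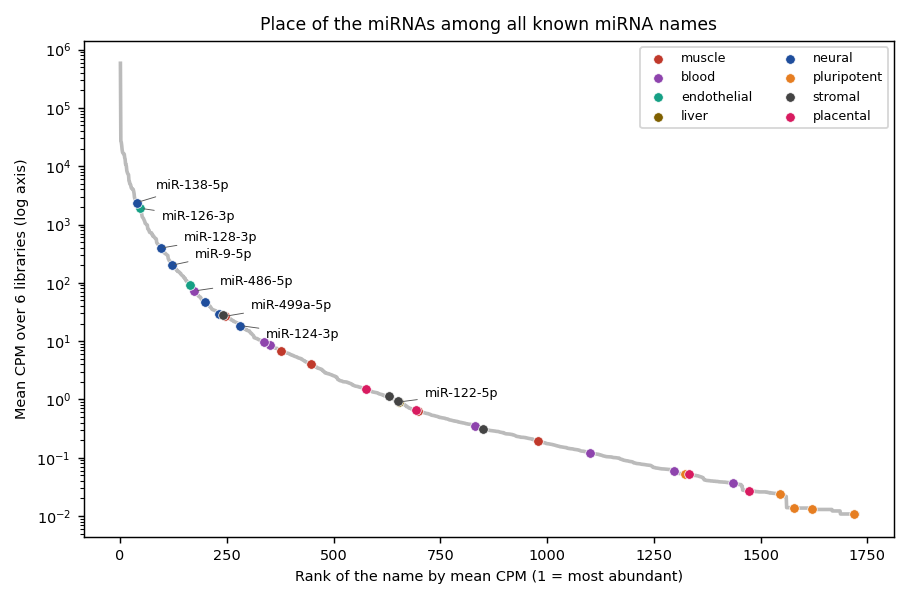
All 1727 known miRNA names are ordered by mean CPM over 6 libraries (grey line, log axis), with the 34 counted markers as points coloured by lineage. MiR-138-5p ranks 39 and miR-126-3p 47, while markers of pluripotent cells lie at the far end.

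The endothelial marker miR-126 was nearly as abundant as miR-138-5p. This miRNA, which supports vessel integrity and growth, lies in an intron of EGFL7 at chr9:136670602-136670686 (GRCh38.p14, plus strand). MiR-126-3p stood at 2102, 1581 and 2232 CPM in PRMT1 libraries and 1840, 2001 and 1651 CPM in control libraries, and ranked 47 of 1727. Its range overlapped that of miR-138-5p, so the order of these neighbours does not exceed their spread. MiR-126-5p stood at 134.6, 84.53 and 61.31 CPM in PRMT1 libraries and 75.96, 70.02 and 125.8 CPM in control libraries. The 3p arm had 15.6, 18.7 and 36.4 times the counts of the 5p arm in PRMT1 libraries and 24.2, 28.6 and 13.1 times in control libraries, with overlap. Log2 fold changes were 0.11 (SE 0.20) for miR-126-3p and 0.05 (SE 0.35) for miR-126-5p, both at an edgeR adjusted p above 0.05, and the second was -0.35 without PRMT1 library 1. MiR-126-3p and miR-126-5p come from the same hairpin and are not separate observations of a gene.

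Blood markers were divided, with 3 of 7 above 3 counts in every library and 4 with at most 10 counts in any library. MiR-486-5p, abundant in red blood cells and also in muscle, stood at 56.80, 80.59 and 47.76 CPM in PRMT1 libraries and 121.5, 59.77 and 68.69 CPM in control libraries (log2 -0.43, SE 0.33). Leaving out control library 1 gave -0.07, and leaving out PRMT1 library 2 gave -0.72. MiR-150-5p, a miRNA of mature lymphocytes, stood at 9.04, 9.62 and 17.9 CPM in PRMT1 libraries and 5.36, 6.80 and 9.02 CPM in control libraries. The groups touched without overlap (log2 0.79, SE 0.36, edgeR adjusted p = 0.741), and the value was 0.40 without PRMT1 library 3. MiR-451a, an erythroid miRNA that is cut by AGO2 instead of DICER, stood at 6.64, 8.63 and 19.5 CPM in PRMT1 libraries and 4.11, 8.56 and 4.20 CPM in control libraries, with overlap (log2 1.04, SE 0.47, edgeR adjusted p = 0.741). Without PRMT1 library 3 that value was 0.43.

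The other blood markers gave no such level. MiR-144-3p, which is transcribed together with miR-451a in red cell precursors, had 3, 0 and 1 counts in PRMT1 libraries and 0, 1 and 0 in control libraries. MiR-223-3p, a myeloid miRNA, had 0, 1 and 4 counts in PRMT1 libraries and 2, 0 and 2 in control libraries. MiR-142-3p, present in nearly all blood cells, had 10, 8 and 3 counts in PRMT1 libraries and 0, 3 and 4 in control libraries. Its opposite arm miR-142-5p had 1, 0 and 0 counts in PRMT1 libraries and 0, 0 and 2 in control libraries. None of these 4 exceeded 10 counts in a library.

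Muscle markers were led by miR-499a-5p, from an intron of the myosin gene MYH7B at chr20:34990376-34990497 (GRCh38.p14, plus strand). It stood at 23.42, 22.78 and 32.20 CPM in PRMT1 libraries and 25.98, 26.49 and 29.09 CPM in control libraries, an overlapping range (log2 -0.06, SE 0.24, and -0.24 to -0.001 with each library left out in turn). The opposite arm miR-499a-3p had no row in any library. MiR-208a-3p, from an intron of the cardiac myosin gene MYH6, was at 0 in all 6 libraries, and miR-208b-3p from MYH7 had 1 count. MiR-133a-3p, which with miR-1 shapes muscle growth, had 88, 98 and 99 counts in PRMT1 libraries and 82, 71 and 98 in control libraries, or 7.35 ± 1.42 and 6.44 ± 1.04 CPM (SD, n = 3 each; log2 0.19, SE 0.30, and 0.085 to 0.30 with each library left out in turn). MiR-1-3p had 48, 49 and 32 counts in PRMT1 libraries and 50, 85 and 47 in control libraries, or 3.28 ± 0.689 and 4.71 ± 1.81 CPM (SD, n = 3 each; log2 -0.52, SE 0.36, and -0.18 without control library 2).

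The skeletal muscle pair encoded on chromosome 6 was lower than its near-copies. MiR-206 had 5, 6 and 10 counts in PRMT1 libraries and 4, 17 and 6 in control libraries. MiR-133b had 4, 2 and 4 counts in PRMT1 libraries and 2, 3 and 0 in control libraries. MiR-133a-3p had 22 to 49 times the counts of miR-133b in the 5 libraries where miR-133b was counted. Given the sequences above and since the sources used here do not say how such reads were divided, the low values of miR-206 and miR-133b are uncertain.

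Stromal markers differed widely although miR-143 and miR-145, smooth muscle miRNAs, lie 1622 bases apart in the long noncoding RNA CARMN (chr5:149428918-149429023 and chr5:149430646-149430733, GRCh38.p14, plus strand). MiR-143-3p stood at 33.25, 21.05 and 33.46 CPM in PRMT1 libraries and 22.46, 29.77 and 25.13 CPM in control libraries (log2 0.18, SE 0.27, and 0.04 to 0.34 with each library left out in turn). MiR-145-5p had 16, 24 and 16 counts in PRMT1 libraries and 10, 11 and 10 in control libraries, or 1.45 ± 0.476 and 0.797 ± 0.0750 CPM (SD, n = 3 each). The miR-145-5p groups did not overlap, but the difference did not pass (log2 0.85, SE 0.40, edgeR adjusted p = 0.741), and the value was 0.53 without PRMT1 library 2. MiR-143-3p had 10.7 to 31.9 times the counts of miR-145-5p in PRMT1 libraries and 30.6 to 33.8 times in control libraries. The opposite arms were nearly absent, with no row for miR-143-5p and 2 counts in all for miR-145-3p.

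MiR-199a-5p and miR-214-3p had low counts. Hairpins of both lie in DNM3OS on chromosome 1, a transcript of mesenchymal cells. Another miR-199a-5p hairpin lies on chromosome 19, within an intron of DNM2 on the opposite strand. The counts of miR-199a-5p therefore cannot be assigned to 1 locus. MiR-199a-5p had 8, 6 and 17 counts in PRMT1 libraries and 7, 25 and 8 in control libraries, and miR-214-3p had 8, 2 and 5 counts in PRMT1 libraries and 2, 3 and 5 in control libraries. The joined name miR-199a-3p and miR-199b-3p, which cannot be assigned to a locus, had 507, 251 and 248 counts in PRMT1 libraries and 272, 439 and 255 in control libraries. MiR-199b-5p had 33, 36 and 25 counts in PRMT1 libraries and 31, 52 and 27 in control libraries, above miR-199a-5p in every library.

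Placental miRNAs of the primate-specific chromosome 19 cluster, the hepatocyte miRNA miR-122-5p and the pluripotency miRNAs were the lowest groups. MiR-522-3p had 29, 25 and 9 counts in PRMT1 libraries and 18, 24 and 13 in control libraries (log2 0.15, SE 0.45). MiR-516a-5p had 5, 6 and 15 counts in PRMT1 libraries and 6, 11 and 7 in control libraries, whereas miR-512-3p and miR-515-5p never exceeded 1 count. MiR-122-5p had 9, 15 and 8 counts in PRMT1 libraries and 10, 9 and 19 in control libraries, 0.829 ± 0.352 and 0.977 ± 0.434 CPM (SD, n = 3 each). The 8 pluripotency miRNAs summed to 1 or 2 counts in every library. MiR-302b-3p, the most counted of them, had 0, 2 and 0 counts in PRMT1 libraries and 1, 0 and 1 in control libraries. MiR-302a-3p had 2 counts in all, miR-302c-3p, miR-302d-3p and miR-372-3p had 1 each, and miR-367-3p, miR-371a-5p and miR-373-3p had 0 in all 6 libraries. The 6 names with the shared seed shown above averaged 0.1145 CPM in sum over the 6 libraries.

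Of the 38 miRNAs, 17 had enough counts for the test between PRMT1 and control, and 21 did not, 4 of them with no read at all. None of the 17 passed at an adjusted p of 0.05 by edgeR (lowest adjusted p = 0.741), and 0 had an unadjusted p under 0.05 in that fit. By DESeq2 or limma-voom, 0 passed at the adjusted p. Over all 668 tested names the called share was 0%, with 36 names (5.39%) at an unadjusted p under 0.05, and over the whole table DESeq2 called 4 names and limma-voom 0. The log2 fold change lay above 0 in 13 and below 0 in 4 of the 17, with a median of 0.14, where all 668 had a median of 0.04 with 360 above and 308 below. With RLE or upper quartile scaling, 11 of the 17 lay above 0 and 6 below. The same 17 were 9 above and 8 below 0 without control library 3, and their median was 0.03 without PRMT1 library 1 and 0.07 without PRMT1 library 3. Groups did not overlap in 2 of the 17, miR-150-5p and miR-145-5p, both higher in PRMT1 libraries. That is 11.8% of the tested markers, beside 10.2% of all 668 names, of which 5.39% lay higher and 4.79% lower in PRMT1 libraries. The SE of a log2 fold change ran from 0.20 to 0.47 in the 17, with a median of 0.30.

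**Figure D3:**
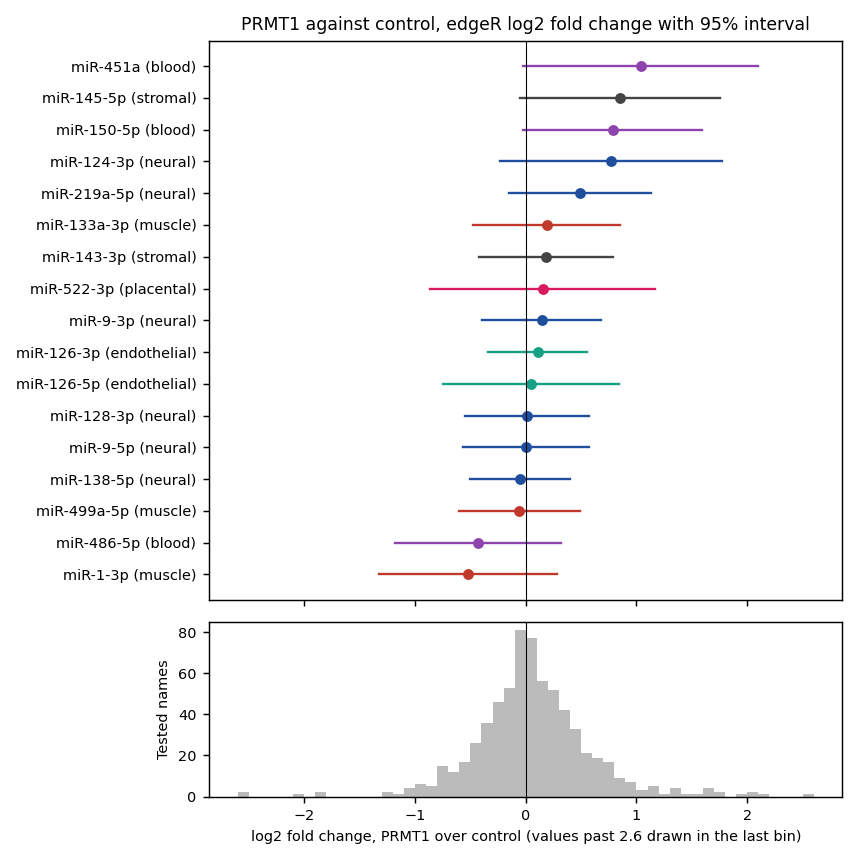
The upper panel gives the log2 fold change of PRMT1 over control for the 17 tested markers, with 95% intervals from edgeR and colour by lineage; the lower panel is a histogram of the same value for all 668 tested names. All 17 intervals include 0, and the highest values are those of miR-451a (1.04) and miR-145-5p (0.85).

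Spread over the 6 libraries, PRMT1 and control together, exceeded counting error for all 17 tested markers. Such a spread includes any difference between the groups. The coefficient of variation of CPM over the 6 libraries ran from 13.3% for miR-499a-5p to 66.1% for miR-451a. For miR-138-5p it was 14.1%, where counting alone gives 0.6%. For the untested miR-133b it was 60.6%, where counting alone gives 63.2%.

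Other arms and close relatives of the markers, a list of 35 names, were also read. Of these, 18 had a read and 7 were tested. The 18 include miR-522-5p, counted only in a row joined with other names of its cluster. The 7 include the joined row of miR-199a-3p and miR-199b-3p. Of the 7, 3 lay above and 4 below 0, with a median log2 fold change of -0.01. None passed by edgeR (lowest adjusted p = 0.741, 0 at an unadjusted p under 0.05). MiR-486-3p had 413, 429 and 372 counts in PRMT1 libraries and 367, 284 and 226 in control libraries (log2 0.47, SE 0.26). The 5p arm of miR-486 therefore had 2.11, 2.28 and 1.53 times the counts of its 3p arm in PRMT1 libraries and 4.51, 2.63 and 3.91 times in control libraries, without overlap. Among the 3 markers whose tested arms share a single hairpin name (miR-9, miR-126 and miR-486) this held for 1, and over all 168 such names the arm ratio did not overlap in 11.3%. For arms named by separate hairpins, the ratios of miR-138-5p to miR-138-1-3p, miR-128-3p to miR-128-1-5p and miR-219a-5p to miR-219a-2-3p overlapped between groups. For miR-138-1-3p the log2 difference was -0.77 (SE 0.48), beside -0.05 for miR-138-5p from the other arm.

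The tables also hold rows for Rfam precursor families, a separate class whose reads were assigned by rules not given in the sources used here. For most markers such rows were small beside the mature names, at 3.66% to 5.21% of the mature counts for mir-126, 3.90% to 5.22% for mir-9 and 6.25% to 10.7% for mir-128 over the 6 libraries. For mir-138 they were 42.6% to 50.3%, with 13497, 14912 and 15691 counts in PRMT1 libraries and 14340, 16463 and 12365 in control libraries. For mir-124 they exceeded the mature names, at 842, 727 and 1400 counts in PRMT1 libraries, against 581, 544 and 763 in control libraries. PRMT1 library 3 was again the highest of these 6, as for miR-124-3p. The mir-133 rows held 134, 108 and 131 counts in PRMT1 libraries and 100, 120 and 116 in control libraries, 108% to 162% of the mature counts. The mir-451 rows held 58, 60 and 59 counts in PRMT1 libraries and 52, 67 and 46 in control libraries. They were 25.3% to 92.9% of the mature counts, and did not have the high value that miR-451a had in PRMT1 library 3. For mir-199 the range was 2.05% to 22.6%. The 18 families read here are a part of this class, which had 107 to 117 rows in a library. As a share of all counts, PRMT1 and control libraries overlapped for each of the 18. How often the other families of the class overlapped was not computed.

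**Figure D4:**
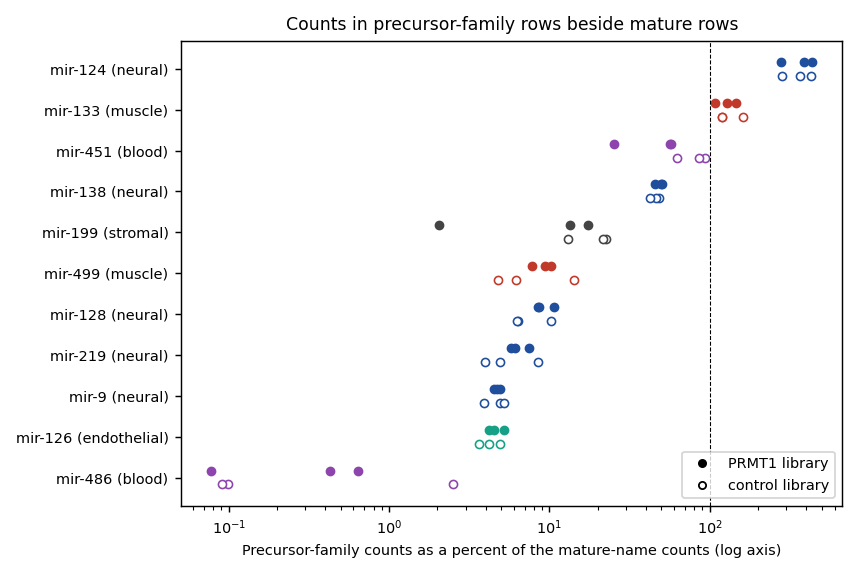
For 11 families with over 10 precursor counts in a library, precursor counts are given as a percent of mature counts on a log axis, filled for PRMT1 and open for control libraries. Mir-124 and mir-133 lie above 100% (dashed line) in all 6 libraries, and mir-126, mir-9 and mir-128 near or under 10%.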

How the data were processed

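Small RNA tables of 6 BEAS-2B libraries were used. The deposited counts were whole reads per small RNA name, per the file headers, and the deposited TPM column was CPM of all counts in a library, to within 0.005 (no length term). The submitters' processing notes list HISAT, Bowtie2, RSEM and GRCh37.p13, with no version of a tool and no role. Handling of strand and of reads matching several names: not given in the sources used here. Per the labels, the library protocol covers messenger RNA enrichment or ribosomal RNA removal, although the tables hold small RNA.

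Rows of class mature were joined over libraries. Names passing filterByExpr (668, with 99.98% of counts) were scaled by TMM and tested by robust quasi-likelihood in edgeR 4.0.16 (R 4.3.3), without a block, with Benjamini-Hochberg adjustment over all 668 at 0.05. Each SE is the absolute log2 fold change over the square root of F. DESeq2 1.42.0 and limma 3.58.1 were alternatives. Hairpins and sequences are from RefSeq on GRCh38.p14, hosts from GENCODE 29, not the submitters' build. All members were accounted for, those tested with values in every library. Members and lists were chosen with earlier results of these data known. No library was a copy of another: over 587 names, chi-square divided by its degrees of freedom was at least 338.9 for every pair.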

Additional observations from a re-analysis of the deposited data

How the results depend on the processing

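None of the 17 tested markers passed the threshold under any alternative, where the lowest adjusted p was 0.256 (miR-451a, edgeR without a filter). An unadjusted p under 0.05 did occur in alternatives, also with some libraries left out. For miR-451a it was 0.0279 with library size scaling and 0.00257 without a filter by edgeR, and 0.0498 by DESeq2. By edgeR, miR-150-5p had 0.0353 with the replicate block and 0.0199 without a filter, and miR-124-3p 0.0209 without a filter. With RLE scaling in edgeR and with limma-voom, these markers stayed above 0.05. The number of known miRNAs past the threshold was 0 by edgeR, 9 without a filter, 4 with DESeq2 and 1 with the replicate number as a block; leaving out each library gave 0 to 1, the 1 without PRMT1 library 1. Under the block no marker passed. Same-numbered libraries had deviations correlated at -0.091, 0.195 and -0.122, so the numbers were not taken to pair samples. The cause of these differences was not tested. The direction of 10 of the 17 markers was the same under every alternative, and 7 turned at least once. MiR-9-5p (0.00) was -0.047 with RLE scaling, -0.051 with upper quartile scaling, -0.012 without a filter, -0.014 with the replicate block, -0.021 without miR-21-5p, -0.04 with DESeq2 and -0.015 with limma-voom. MiR-128-3p (0.01) was -0.027 with RLE, -0.013 with upper quartile, -0.007 without miR-21-5p and -0.018 with DESeq2, and miR-138-5p (-0.05) was 0.021 with library size scaling. Leaving out 1 library gave -0.014 to 0.21 for miR-126-3p, -0.35 to 0.303 for miR-126-5p, -0.202 to 0.09 for miR-9-5p, -0.006 to 0.285 for miR-9-3p, -0.201 to 0.117 for miR-128-3p, -0.15 to 0.068 for miR-138-5p and -0.105 to 0.465 for miR-522-3p. The stricter filter left 6 of the 17 untested. With a minimum of 10 counts, 22 markers were present rather than 34, and matching joined names left 34. As CPM of all deposited counts, lineage sums in PRMT1 and control libraries were 19.96 and 20.72 for muscle, 45.57 and 51.59 for blood, 1120 and 1016 for endothelium, 0.430 and 0.5195 for liver, 1613 and 1631 for neural, 0.0675 and 0.05467 for pluripotent, 17.35 and 14.69 for stromal and 1.261 and 1.096 for placental markers. With miR-21-5p left out of the known miRNA total they were 91.33 and 88.5, 210.5 and 219.5, 5024 and 4349, 2.032 and 2.196, 7390 and 6988, 0.3095 and 0.2313, 77.5 and 62.96, and 5.768 and 4.73 CPM in the same order. On the main TMM scale, muscle was 37.57 and 39.17, blood 86.27 and 96.38, endothelium 2065 and 1921, and neural 3036 and 3093 CPM. Liver was 0.829 and 0.977, pluripotent 0.126 and 0.103, stromal 31.88 and 27.89, and placental 2.361 and 2.093 CPM. On each scale PRMT1 and control libraries overlapped for every lineage. Without miR-21-5p the SDs were 756.8 and 387.8 for endothelium, and 15.97 and 9.421 for stromal markers. Of the 21 untested markers, 13 never exceeded 3 counts, the limit that a count of 0 allows.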

Other observations

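Of the 17 tested markers, 9 had their highest CPM in PRMT1 library 3, a count made after the values were seen. They were miR-133a-3p, miR-499a-5p, miR-451a, miR-150-5p, miR-126-3p, miR-124-3p, miR-9-5p, miR-219a-5p and miR-143-3p, from the muscle, blood, endothelial, neural and stromal groups. Over all 668 tested names, 20.8% were highest in that library. The part of this library in the differences of miR-451a, miR-150-5p, miR-124-3p and miR-219a-5p is given by their values without it.

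The seed of miR-367-3p, a pluripotency marker listed at 0 counts in all 6 libraries, is shared with miR-92a-3p, miR-92b-3p and miR-25-3p. The 5 other names with this seed had a summed mean of 13200 CPM over the 6 libraries. The seed of miR-302a-3p to miR-302d-3p, miR-372-3p and miR-373-3p is held by 6 other names in RefSeq, of which 2 had a read, with a summed mean of 0.0274 CPM. No other counted name in the RefSeq table had the seed of miR-138-5p, miR-126-3p, miR-9-5p, miR-128-3p or miR-143-3p. That table held a sequence for 1533 of the 1727 counted names, so the rest could not be compared.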
